A study of Mus musculus with 6 samples.

Results

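The NF-κB factors and their inhibitors were followed as 10 genes of a table of 13283 genes: the subunit genes Nfkb1, Nfkb2, Rela and Relb, the IκB genes Nfkbia, Nfkbib, Nfkbie and Nfkbiz, and the regulators Tnfaip3 and Ikbke. They were chosen by gene symbol, with earlier results of these data known, and all 10 were found. RNA-seq compared 3 MICT1 KO libraries with 3 Scr libraries of cultured cells put through brown adipocyte differentiation. The aim was to see which transcripts differ when the microprotein MICT1 is ablated. Both groups came from 1 immortalized mouse brown preadipocyte (BAT) line that stably expresses Cas9. Adipocyte transcripts were far lower in the MICT1 KO libraries, as given below. Scr cells carried a scrambled sgRNA, and are labelled as WT controls. MICT1 KO cells are knockout pools, not clones, and the sgRNA pool behind each library is not labelled. All 6 cultures, controls included, were treated with 10 µM forskolin, an activator of adenylyl cyclase, for 6 h on day 6 of differentiation, so no library shows the genes without forskolin. The cultures are replicates within 1 line, and every error given covers the spread between these cultures. MICT1 transcript levels were not analysed here, and so gave no check of the labels.

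NF-κB is a family of dimeric transcription factors. In resting cells IκB proteins hold the dimers in the cytoplasm. Signals from receptors for TNF, interleukin-1 or microbial products activate the IκB kinase (IKK) complex, which marks IκB for degradation, and the freed dimers enter the nucleus and bind κB sites in promoters of cytokine, chemokine and survival genes. In the noncanonical branch the kinase NIK drives processing of the Nfkb2 product p100 to p52, which acts with RELB. Genes of several inhibitors are themselves known targets of NF-κB and form a negative feedback. In adipose tissue the pathway is best known from the inflammation that accompanies obesity.

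Of the 10 genes, 9 were higher in MICT1 KO than in Scr cells and none was lower. Relb and Nfkb2, the pair of the noncanonical branch, rose 2.81-fold and 2.64-fold. The IκB genes Nfkbie, Nfkbia and Nfkbiz rose 2.75-fold, 1.98-fold and 1.81-fold, and Ikbke rose 2.41-fold. Rela, Nfkb1 and Tnfaip3 rose by smaller amounts, between 1.23-fold and 1.32-fold. Nfkbib, at 1.06-fold, did not pass the test. These folds are on the scale of log2(value + 1), where the value is the authors' normalized number of reads per gene, and the test was limma-trend with Benjamini-Hochberg adjustment over 12507 genes and a threshold of 0.05. Higher calls made up 28.5% of all genes tested and calls in either direction 56.9%, so a call by itself was common in this comparison. A rise of at least 2-fold with an adjusted p under the threshold was found for 4 of the 10, Nfkb2, Relb, Nfkbie and Ikbke, against 7.99% of all genes tested. The median log2 fold change of the 10 genes was 0.92, and that of all genes tested was -0.0053. The 10 genes were chosen with earlier results of these data known, so their shares beside those of all genes are a description. All 3 MICT1 KO libraries were above all 3 Scr libraries for 9 of the 10 genes, against 30.9% of all genes tested (31.2% had all MICT1 KO libraries below, so 62% were apart in either direction). These are bulk cultures, in which a changed share of cells and a changed amount of RNA per cell cannot be told apart.

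**Figure D1:**
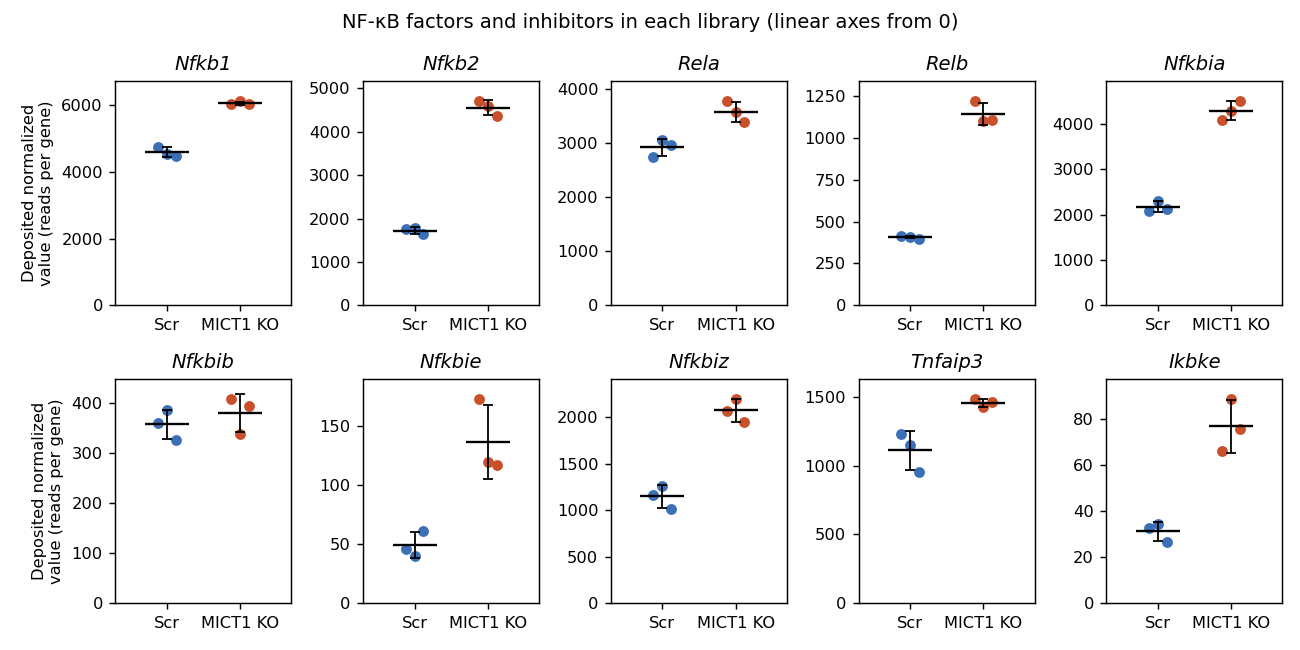
The authors' normalized value of each of the 10 genes is shown per library, with Scr libraries in blue and MICT1 KO libraries in red on linear axes from 0, and horizontal bars with whiskers for the mean and SD of 3 libraries. The groups are apart for 9 genes, as for Relb with 398 to 410.5 in Scr and 1102 to 1217 in MICT1 KO, and overlap for Nfkbib.

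The stretches just before the transcription start of 4 of these genes are printed to show the κB sites, the sequences to which NF-κB binds, beside the expression of genes that code for NF-κB and its inhibitors. RefSeq promoter windows on GRCm38.p6 were matched by symbol for 7 of the 10 genes, and not for Nfkb1, Relb and Nfkbiz. Each line runs 5′ to 3′ toward the start on the strand of the gene, and capitals mark a match to the κB consensus on either strand. Nfkbia is shown at chr12:55492648-55492897 (minus strand), Nfkbie at chr17:45555450-45555699 (plus strand), Tnfaip3 at chr10:19015411-19015547 (minus strand) and, with no match, Nfkbib at chr7:28766645-28766734 (minus strand). The windows of Tnfaip3 and Nfkbib are shortened to 137 and 90 bases because annotated exons lie further upstream.
Nfkbia: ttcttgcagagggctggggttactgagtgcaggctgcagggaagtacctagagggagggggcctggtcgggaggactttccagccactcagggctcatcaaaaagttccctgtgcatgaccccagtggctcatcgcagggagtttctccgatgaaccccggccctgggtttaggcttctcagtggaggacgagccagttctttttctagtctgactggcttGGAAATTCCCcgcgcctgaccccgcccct
Nfkbie: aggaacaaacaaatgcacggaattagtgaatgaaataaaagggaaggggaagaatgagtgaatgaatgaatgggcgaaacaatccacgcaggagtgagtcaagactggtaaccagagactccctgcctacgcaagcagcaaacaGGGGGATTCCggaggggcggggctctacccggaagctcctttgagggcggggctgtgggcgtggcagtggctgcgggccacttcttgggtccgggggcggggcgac
Tnfaip3: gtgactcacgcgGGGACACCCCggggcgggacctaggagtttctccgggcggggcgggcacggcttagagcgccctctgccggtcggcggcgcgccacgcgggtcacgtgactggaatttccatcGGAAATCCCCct
Nfkbib: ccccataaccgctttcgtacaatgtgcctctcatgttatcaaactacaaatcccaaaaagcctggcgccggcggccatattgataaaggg

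In the Nfkbia promoter the match lay 29 to 20 bases before the start, where the reverse strand reads GGGAATTTCC. In that of Nfkbie the match GGGGGATTCC lay 106 to 97 bases before the start. Tnfaip3 had GGGACACCCC at 125 to 116 bases and, on the reverse strand, GGGGATTTCC at 12 to 3 bases. The Nfkb2 window at chr19:46304487-46304736 (plus strand) ends within an annotated exon. It held GGGAATTCCC at 39 to 30 bases and GGGGCTTTCC at 11 to 2 bases before its start site. On its reverse strand GGGGAATTCC, at 38 to 29 bases, overlapped the former. Windows of other Nfkb2 starts held GGGACATTCC on the reverse strand at 236 to 227 bases and GGGACTTTCC at 225 to 216 bases. The window of another Tnfaip3 start, at chr10:19011964-19012213, had no match. Counting all annotated starts and 250 bases before each, 4 of the 7 genes held the κB consensus, namely Nfkb2, Nfkbia, Nfkbie and Tnfaip3. The share was 4.46% of the 27025 genes with a promoter window, and 5.57% of those that were also in the expression data. A gene with more starts has more windows to match. Counted by window, 6 of 10 windows of these genes held the consensus, against 3.9% of all windows. The narrower motif GGGNNTTTCC, also searched on both strands and overlapping the consensus, was found in Nfkb2, Nfkbia and Tnfaip3. That is 3 of 7, against 1.65% of all genes and 1.82% of those in the expression data. Rela, Nfkbib and Ikbke had neither motif in these windows. The motifs were chosen with results of these data known, a match is not a measured binding site, and the genes with a match included both Nfkbie at 2.75-fold and Tnfaip3 at 1.32-fold.

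Among the subunit genes, Nfkb2 codes for p100, which holds NF-κB dimers in the cytoplasm until it is processed to p52. Nfkb2 (chromosome 19, 46300994 to 46312400 on GRCm38.p6) measured 1748, 1782 and 1640.4 across the Scr cultures, and 4701, 4604 and 4368 after MICT1 ablation. The lowest MICT1 KO library was thus well above the highest Scr library. The mean rose from 1723 ± 73.8 to 4558 ± 171 (SD, n = 3 each), by 1.40 on the log2 scale (limma-trend standard error 0.0581, adjusted p = 1.97e-14). Exons of Nfkb2 overlap those of Psd and of a noncoding gene on the opposite strand, by 299 and 531 bases, and whether the counting used strand is not given in the sources used here.

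Relb codes for the partner of p52. Relb (chromosome 7, 19606217 to 19629438) measured 410.5, 409 and 398 across the Scr cultures, and 1217, 1102 and 1108 after MICT1 ablation. The Scr libraries lay within a narrow band and the groups did not overlap. With means of 406 ± 6.84 and 1143 ± 65.0 (SD, n = 3 each), the log2 fold change was 1.49 (limma-trend standard error 0.0821, adjusted p = 2.30e-12), the largest among the 10 genes in this fit. Without Scr replicate 3 Nfkbie stood above it, at 1.63 against 1.48.

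Nfkb1 codes for p105, the precursor of p50, and Rela for p65, the main activating subunit of the canonical branch. Nfkb1 (chromosome 3, 135584655 to 135691969) measured 4745, 4548 and 4474 in control and 6024, 6109.97 and 6043 in knockout libraries. Both groups were tight and they did not overlap. Nfkb1 rose from 4589 ± 139.8 to 6059 ± 45.0 (SD, n = 3 each; log2 fold change 0.40 with standard error 0.0516 and limma-trend adjusted p = 1.15e-06). Rela (chromosome 19, 5637442 to 5648134) measured 2748, 3059 and 2970.4 in control and 3776, 3573 and 3403 in knockout libraries. The distance between the highest Scr and the lowest MICT1 KO library was the smaller for Rela, though the groups were still apart. Rela rose from 2926 ± 160.5 to 3584 ± 187 (SD, n = 3 each), and its log2 fold change of 0.29 (limma-trend standard error 0.0599, adjusted p = 0.000301) was the smallest of the 9 that passed in this fit. Without Scr replicate 3 Tnfaip3 lay below it, at 0.296 against 0.305.

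Nfkbia codes for IκBα, the inhibitor whose resynthesis ends an NF-κB response. Nfkbia (chromosome 12, 55489409 to 55492647) measured 2071, 2311 and 2134 across the Scr cultures, and 4087, 4295 and 4499 after MICT1 ablation. Each MICT1 KO library was far above each Scr library. The mean rose from 2172 ± 124 to 4293 ± 206 (SD, n = 3 each), by 0.98 on the log2 scale (limma-trend standard error 0.0600, adjusted p = 1.22e-11).

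Nfkbib, which codes for IκBβ, was the gene without a call. Nfkbib (chromosome 7, 28758251 to 28766644) measured 359, 385 and 326 in control and 407, 337 and 394 in knockout libraries. The second MICT1 KO library lay below the first and second Scr libraries, so the groups overlapped. The means were 356.5 ± 29.6 and 379 ± 37.15 (SD, n = 3 each), and the log2 fold change was 0.09 with a 95% confidence interval of -0.15 to 0.32 (limma-trend adjusted p = 0.528). The upper end of that interval lies below the log2 fold change of each of the other 3 IκB genes. Exons of Nfkbib share 314 bases with Ccer2 on the opposite strand.

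Nfkbie codes for IκBε, another cytoplasmic inhibitor. Nfkbie (chromosome 17, 45555700 to 45563169) measured 45.5, 39.9 and 61.1 across the Scr cultures, and 173, 119 and 117 after MICT1 ablation. The spread was wide in both groups, but the groups did not overlap. The mean rose from 48.8 ± 11.0 to 136 ± 31.5 (SD, n = 3 each), by 1.46 on the log2 scale (limma-trend standard error 0.236, adjusted p = 2.08e-05). At these low values the 95% confidence interval ran from 0.97 to 1.95. Nfkbiz codes for IκBζ, a nuclear IκB protein that acts with p50 as a coactivator of a subset of NF-κB targets. Nfkbiz (chromosome 16, 55811375 to 55838954) measured 1167, 1259 and 1015 in control and 2073, 2196 and 1954 in knockout libraries. All 3 MICT1 KO libraries were higher, and the mean rose from 1147 ± 123 to 2074 ± 121 (SD, n = 3 each; log2 fold change 0.86 with standard error 0.0763 and limma-trend adjusted p = 5.07e-09).

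Tnfaip3 codes for A20, a ubiquitin-editing enzyme that shuts off signaling upstream of IKK. Tnfaip3 (chromosome 10, 19000910 to 19015410) measured 1232, 1149 and 959 across the Scr cultures, and 1487, 1429 and 1469 after MICT1 ablation. The MICT1 KO libraries were close together and above the Scr libraries, whose spread was larger. The means were 1113 ± 140.4 and 1462 ± 29.9 (SD, n = 3 each), and the log2 fold change was 0.40 (limma-trend standard error 0.0805, adjusted p = 0.000253).

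Ikbke codes for IKKε, a kinase related to IKK that also acts in interferon signaling and is known to be raised in adipose tissue in obesity. Ikbke (chromosome 1, 131254600 to 131279601) measured 32.6, 34.3 and 26.5 in control and 65.8, 88.5 and 75.7 in knockout libraries. The groups did not overlap. The mean rose from 31.1 ± 4.13 to 76.65 ± 11.4 (SD, n = 3 each), by 1.27 on the log2 scale (limma-trend standard error 0.271, adjusted p = 0.000446). The 95% confidence interval of that rise was 0.71 to 1.84. All 10 genes passed the filter on low values (10 or more in 3 or more libraries), and each was above 10 in all 6 libraries.

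**Figure D2:**
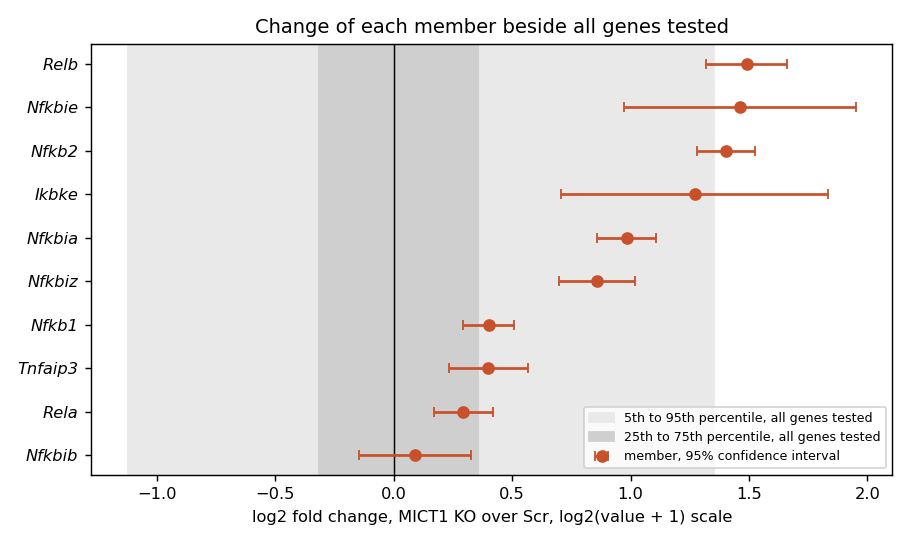
Log2 fold change of MICT1 KO over Scr with its 95% confidence interval for each of the 10 genes, beside grey bands for the 25th to 75th and the 5th to 95th percentile of the 12507 genes tested. Relb (1.49), Nfkbie (1.46) and Nfkb2 (1.40) lie beyond the 95th percentile of 1.35, while Nfkbib (0.09) and Rela (0.29) lie inside the inner band, which ends at 0.36.

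Leaving out each of the 6 libraries in turn kept the call and the direction of all 9 genes that passed. The log2 fold change then ran from 1.28 to 1.63 for Nfkbie, the widest range among the 9, and from 0.38 to 0.43 for Nfkb1. The highest adjusted p in these fits was 0.00486, for Ikbke (limma-trend). Nfkbib had adjusted p values of 0.247 to 0.883 over all alternatives. The methods give a rule of p under 0.05, a change of at least 1.8-fold and a maximum RPKM of at least 4. It was applied here with the unadjusted p of limma-trend and the RPKM described below. By this rule 5 of the 10 genes were called higher, namely Nfkb2, Relb, Nfkbia, Nfkbie and Nfkbiz. The shares over all genes tested were 5.25% in that direction and 9.84% in either. Nfkbie met the RPKM limit through a single MICT1 KO library, at 4.31 RPKM, with 3.004 and 2.96 in the other MICT1 KO libraries and 0.985 to 1.53 in Scr, so its call by this rule rests on the group where it is high.

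To compare levels between the genes, values were turned into RPKM, which scales reads to the depth of the library and to the length of the longest coding transcript. In Scr libraries Nfkbia stood highest, at 84.1 ± 3.57 RPKM (SD, n = 3). Nfkb1 at 68.1 ± 2.98 and Rela at 65.8 ± 2.62 followed and could not be ordered, since their libraries overlapped. Nfkb2 came next, at 27.4 ± 1.18 RPKM.

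Lower down in Scr libraries, Nfkbiz at 17.0 ± 1.76 and Tnfaip3 at 15.4 ± 2.05 RPKM overlapped, as did Relb at 11.2 ± 0.284 and Nfkbib at 10.6 ± 0.826. Nfkbie, at 1.23 ± 0.278, and Ikbke, at 0.585 ± 0.0768 RPKM, were the lowest and did not overlap each other. In MICT1 KO libraries the order from the top was Nfkbia at 166.8 ± 8.95, Nfkb1 at 90.2 ± 1.09, Rela at 80.85 ± 3.74 and Nfkb2 at 72.6 ± 2.38 RPKM, and each of these was above the next in every library. Relb, at 31.7 ± 1.60 RPKM, and Nfkbiz, at 30.9 ± 1.79, overlapped. Tnfaip3 at 20.25 ± 0.347, Nfkbib at 11.3 ± 1.07, Nfkbie at 3.43 ± 0.768 and Ikbke at 1.45 ± 0.221 RPKM followed in that order without overlap.

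The subunit genes rose unequally. Summed over the 4, their level went from 172.5 ± 2.14 to 275.3 ± 6.69 RPKM (SD, n = 3 each). Of that sum, Nfkb2 made up 15.9% in Scr and 26.4% in MICT1 KO libraries, and Relb 6.51% and 11.5%. Nfkb1 fell from 39.5% to 32.8% of the sum and Rela from 38.1% to 29.4%, although both had higher levels. The ratio of Nfkb2 to Nfkb1 RPKM within a library was 0.402 ± 0.0150 in Scr and 0.805 ± 0.0308 in MICT1 KO, a difference of 1.0 on the log2 scale. The ratio of Relb to Rela was 0.171 ± 0.0111 and 0.392 ± 0.0112, a difference of 1.2 on the log2 scale. Both ratios were higher in each MICT1 KO library than in each Scr library, with an exact two-sided permutation p of 0.1, which is the smallest that 3 against 3 libraries can give (0.1 also after adjustment over the 3 ratios tested). The shares depend on the transcript length assigned to each gene. With the union of all annotated exons as the length, chosen after seeing the data, Nfkb1 made up 21.0% and 17.0% and Rela 52.5% and 39.4% of the sum, while Nfkb2 rose from 20.7% to 33.6% and Relb from 5.76% to 9.94%. By that length Rela stood above Nfkb1 in Scr libraries, at 58.2 ± 2.31 against 23.3 ± 1.02 RPKM. Nfkb2, at 22.97 ± 0.99 RPKM, then overlapped Nfkb1 in Scr libraries and stood above it in MICT1 KO libraries, at 60.9 ± 1.998 against 30.8 ± 0.372 RPKM, so the order of these 2 genes after MICT1 ablation depends on the length used.

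**Figure D3:**
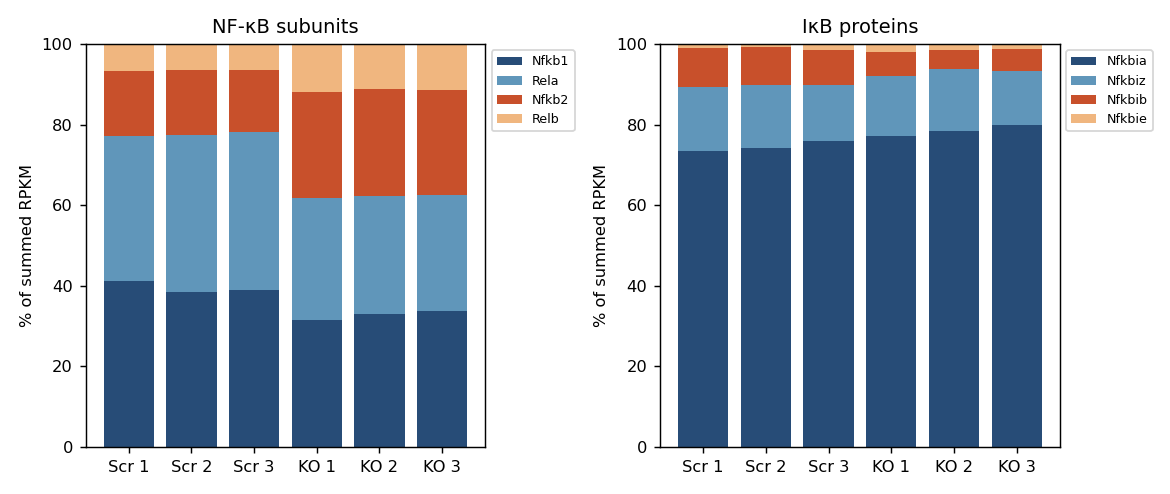
Share of each gene in the summed RPKM of the 4 NF-κB subunit genes (left) and of the 4 IκB genes (right), in percent, with 1 stacked bar per library (KO stands for MICT1 KO). Nfkb2 and Relb take 15.9% and 6.51% of the subunit sum for Scr and 26.4% and 11.5% for MICT1 KO, and Nfkbib goes from 9.35% to 5.32% of the IκB sum.

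Transcripts of the 4 IκB genes summed to 112.9 ± 5.25 RPKM in Scr and 212.3 ± 7.45 RPKM in MICT1 KO libraries (SD, n = 3 each). Nfkbia supplied most of them in both groups, 74.5% and 78.5%, followed by Nfkbiz with 15.1% and 14.6%. Nfkbib fell from 9.35% to 5.32% of the IκB sum, while its own level did not pass the test. The ratio of Nfkbia to Nfkbib was 7.98 ± 0.525 in Scr and 14.9 ± 1.76 in MICT1 KO, a difference of 0.90 on the log2 scale (exact permutation p = 0.1, adjusted 0.1). IκB transcripts per subunit transcript came to 0.638, 0.685 and 0.639 across the Scr cultures, and to 0.727, 0.771 and 0.818 after MICT1 ablation. The MICT1 KO libraries were higher without overlap, by a smaller factor than the sums themselves. This ratio also depends on the transcript length assigned to each gene. By the exon union, Nfkb1 was at 23.3 in place of 68.1 RPKM in Scr libraries, and Nfkbia at 82.4 in place of 84.1 RPKM. The ratio was not recomputed with that length, so it does not show whether IκB or subunit transcripts were more abundant. These are transcript levels, and protein was not measured in these files.

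The rest of the pathway moved in both directions. Of 65 other genes of NF-κB signaling, 61 were in the table and 60 were tested. By limma-trend 16 were higher and 12 lower, against 28.5% and 28.3% of all genes tested, and their median log2 fold change was 0.06. At 2-fold or more 4 were higher and 1 was lower, against 7.99% and 5.76% of all genes tested. These counts are near or below the shares over all genes, and so are no result about the pathway as a whole. Nfkbid, Il18r1, Cd40 and Tnip3 were not analysed here.

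Rel, the gene of the remaining subunit c-REL, measured 455, 474 and 384 across the Scr cultures, and 662, 755 and 706 after MICT1 ablation. The groups did not overlap, and the log2 fold change was 0.70 (limma-trend standard error 0.0985, adjusted p = 4.04e-06). With it, all 5 subunit genes were higher in MICT1 KO cells, where 28.5% of all genes tested were higher. Bcl3, which codes for another nuclear IκB protein, was at 484.7 to 522 in MICT1 KO and 498 to 567 in Scr libraries, with a log2 fold change of -0.05 (limma-trend adjusted p = 0.695). Among the 7 genes tested of other NF-κB and IκB proteins, Rel was higher and 3 were lower, beside shares of 28.5% and 28.3% over all genes. The lower genes were Nkiras2, Nfkbil1 and Nkap (named after their values were seen), at log2 fold changes of -0.42, -0.31 and -0.25.

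The 3 genes of the IKK complex, which phosphorylates IκB, did not pass the test. The log2 fold change was -0.10 for Chuk, which codes for IKKα (limma-trend adjusted p = 0.150). It was 0.11 for Ikbkb, which codes for IKKβ, and 0.04 for Ikbkg, which codes for the scaffold NEMO (limma-trend adjusted p = 0.242 and 0.726). Their 95% confidence intervals, -0.23 to 0.02, -0.05 to 0.28 and -0.14 to 0.22, lie below the log2 fold changes of Nfkbia and Nfkb2. The interval of Rela, 0.17 to 0.42, overlaps those of Ikbkb and Ikbkg. All MICT1 KO libraries lay below all Scr libraries for Chuk and above them for Ikbkb, where 62% of all genes were apart in either direction.

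Among the receptors 5 of 10 genes tested were higher and 2 were lower, where 28.5% and 28.3% of all genes were. Tlr2, a receptor for bacterial lipopeptides, rose from 89.0 ± 10.6 to 311 ± 30.55 (SD, n = 3 each; log2 fold change 1.8, limma-trend adjusted p = 4.52e-09). Il1rap, the coreceptor for interleukin-1, rose with a log2 fold change of 1.13 (limma-trend adjusted p = 3.95e-09). Of genes picked after their values were seen, Tnfrsf12a, the TWEAK receptor, was higher (0.78), and so was Il1r1, the interleukin-1 receptor (0.40). Tnfrsf1a, the main TNF receptor, was lower, at a log2 fold change of -0.65 (limma-trend adjusted p = 8.36e-09).

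Adaptors and upstream kinases gave 7 higher and 2 lower calls among 28 genes, a share of higher calls near the 28.5% over all genes. Irak3, which codes for an inhibitor of interleukin-1 and Toll-like receptor signaling, and Birc3, a ubiquitin ligase and known NF-κB target, had log2 fold changes of 1.13 and 1.15 (limma-trend adjusted p = 1.20e-09 and 3.76e-05). Tbkbp1, an adaptor of the kinase TBK1, fell by 1.76 on the log2 scale, from 349, 425 and 493 to 139, 109 and 121 (limma-trend adjusted p = 2.66e-09). Map3k14, the gene of NIK, which was picked after its value was seen, was higher at a log2 fold change of 0.55 (limma-trend adjusted p = 0.00100).

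Of 12 genes for ubiquitin chain enzymes and partners of A20, 3 were higher and 5 lower, beside shares of 28.5% and 28.3% over all genes. Tnip1, which codes for an A20-binding protein, and Cyld, a deubiquitinase that restrains IKK, each had a log2 fold change of 0.94, while that of Otulin, which removes linear ubiquitin chains, was -0.63. These 3 genes were also picked after their values were seen, and each had an adjusted p under 0.05 by limma-trend.

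**Figure D4:**
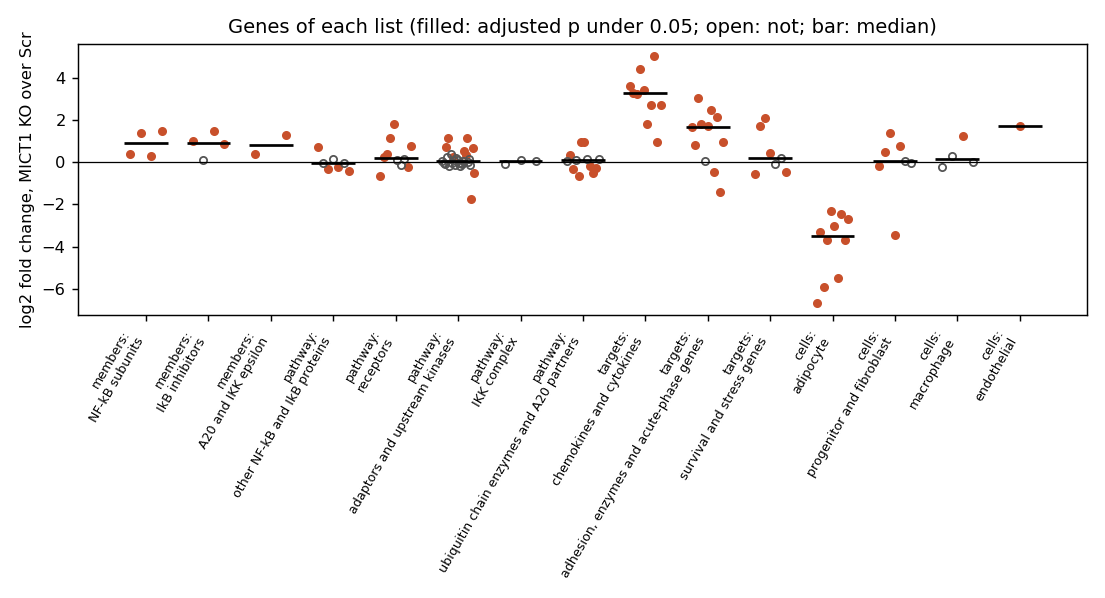
Log2 fold change of MICT1 KO over Scr (vertical axis) for every tested gene of each list (columns), with filled red points for an adjusted p under 0.05, open points for the others and a bar at the median. The chemokine and cytokine genes center on 3.26 and the adipocyte genes on -3.50, while the medians of the 5 columns of pathway genes are between -0.05 and 0.20.

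Genes known from other cells as NF-κB targets were counted next. Of 35 genes, 28 were in the table and tested, 21 were higher, 4 were lower and 3 did not pass, against 28.5% higher and 28.3% lower over all genes. Their median was 1.76 on the log2 scale. A rise of 2-fold or more was found for 17, against 7.99% of all genes tested. All 10 chemokine and cytokine genes tested, of 15 in that list, were higher, with a median of 3.26. Ccl20, Il1a, Il1b, Tnf and Csf2 of that list, and Sele and Bcl2a1a of the others, were not analysed here. Among genes for adhesion molecules, enzymes and acute-phase proteins 8 were higher and 2 lower of 11, and among survival and stress genes 3 were higher and 2 lower of 7. The list is a textbook one that was put together with results of these data known, and many of its genes respond to other factors as well.

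Il6, the gene of interleukin-6, measured 246, 258 and 164 across the Scr cultures, and 7635, 7302 and 6398 after MICT1 ablation. That is a rise of 32.4-fold, the largest of the list (log2 fold change 5.02 with standard error 0.117 and limma-trend adjusted p = 2.06e-18). Cxcl10, a chemokine gene that is also induced by interferons, measured 94.0, 76.0 and 76.3 in control and 1806, 1658 and 1869.9 in knockout libraries, a log2 fold change of 4.43 (limma-trend adjusted p = 9.11e-18). Cxcl1, a neutrophil chemoattractant, measured 3083, 3431 and 3023 in control and 40103.9, 36998 and 38064 in knockout libraries. Its log2 fold change was 3.60 (limma-trend adjusted p = 3.69e-21).

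The other large rises were in genes of the same kinds. Ccl2 and Ccl7, which attract monocytes, had log2 fold changes of 3.40 and 2.73, and Cxcl2 and Cxcl5, which attract neutrophils, 3.30 and 3.22 (all with adjusted p at most 9.75e-13 from limma-trend). Ptgs2, the inducible cyclooxygenase gene, which forskolin and cAMP are also known to induce, rose from 4116, 4759 and 3793 to 34766, 37539 and 32923 (log2 fold change 3.06, limma-trend adjusted p = 1.30e-18).

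Not every target gene moved this way. Sod2, Irf1 and Cd83 did not pass, with log2 fold changes of 0.08, -0.10 and 0.20 (limma-trend adjusted p = 0.228, 0.505 and 0.808). Cd83 was near the filter limit, at 4.95 to 24.1 in Scr and 5.18 to 20.02 in MICT1 KO libraries. Mmp9, a matrix protease gene, was the gene of the list with a fall of at least 2-fold, at 9.89, 40.8 and 34.6 in control and 14.3, 12.6 and 3.11 in knockout libraries. Its groups overlapped, and its adjusted p of 0.0468 (log2 fold change -1.41, limma-trend) rose to 0.227 without Scr replicate 2 (-1.05), 0.173 without Scr replicate 3 (-1.17) and 0.219 without MICT1 KO replicate 3 (-0.81). C3, Bcl2l1 and Xiap, named after their values were seen, were lower at log2 fold changes of -0.45, -0.55 and -0.46.

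**Figure D5:**
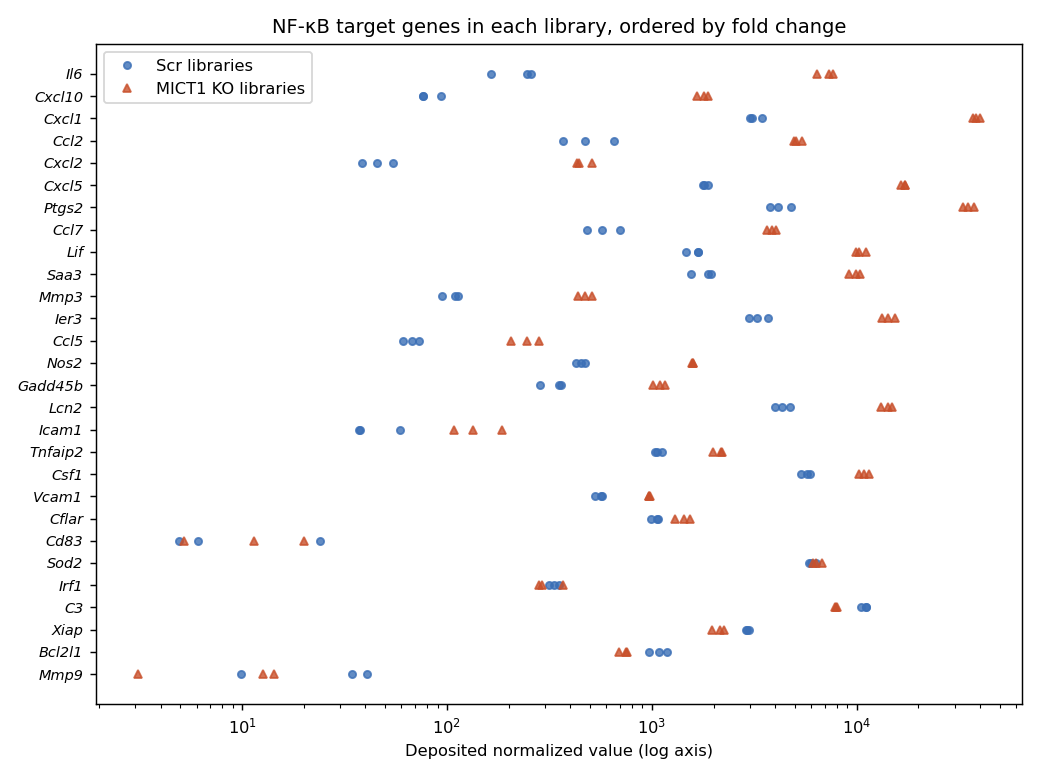
The authors' normalized value of the 28 NF-κB target genes in each library on a logarithmic axis, ordered by fold change, with blue circles for Scr and red triangles for MICT1 KO libraries. For the 10 chemokine and cytokine genes all red points lie to the right of all blue points, while Sod2, Irf1 and Cd83 overlap and C3, Xiap and Bcl2l1 lie to the left.

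After the authors' normalization the values of a library summed to between 16104616 and 16616825, and the size factors read from the values were 0.949 to 1.08, so the libraries were of like depth. Correlations of log2(value + 1) across genes were 0.987 to 0.99 within groups and 0.929 to 0.940 between groups. The labelled cell type was checked on its markers. All 10 adipocyte genes were lower in MICT1 KO cells by at least 2-fold, against 5.76% of all genes tested, with a median log2 fold change of -3.50, and their summed level was 4760 to 5590 RPKM in Scr and 453 to 732 RPKM in MICT1 KO libraries. Fabp4, a fatty acid-binding protein gene, fell by 3.33 on the log2 scale (limma-trend adjusted p = 3.98e-15). Ucp1, the marker of brown fat, was low throughout, at 20.8, 24.1 and 30.5 in Scr (0.938 ± 0.181 RPKM) and 1.91, 1.05 and 9.33 in MICT1 KO libraries, and like Adipoq it passed the filter on low values only through the Scr group. Genes of progenitors and fibroblasts gave 3 higher and 2 lower calls of 7 (28.5% and 28.3% over all genes). The 3 higher genes were the collagen gene Col1a1 at 0.77, Ly6a at 1.39 and Pdgfrb at 0.48 on the log2 scale. Dlk1, a preadipocyte gene, was lower at -3.47 and Pdgfra at -0.19, and Col1a2 and Col3a1, at 0.06 and -0.05, did not pass. Ucp1, Adipoq and all these but Col1a1 were named after their values were seen. The list summed to 504 to 588 RPKM in Scr and 680 to 721 RPKM in MICT1 KO libraries, and without Col1a1, a sum added after seeing the data, to 326 to 396 and 365 to 389 RPKM, which overlap. The rise of the NF-κB genes and targets thus went with a lower level of adipocyte transcripts. The paper also reports lower adipogenic genes in its MICT1 knockout cells, and calls it plausible that the deletion affected differentiation in culture. It reports no such change after knockdown in cells already differentiated. The part of the lower adipocyte level in the values of the 10 genes was not tested.

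Macrophages and endothelial cells express many of these genes strongly, so their markers were read in the same libraries. Of 11 macrophage genes 4 were in the table, which lists only genes above 0 in every library. Of these 4, 1 was higher (28.5% over all genes tested). Cd14, which other cells also express, rose at a log2 fold change of 1.24 (limma-trend adjusted p = 2.44e-06). Csf1r, Cd68 and Mrc1 had log2 fold changes of 0.29, -0.23 and 0.02 (limma-trend adjusted p = 0.253, 0.733 and 0.967). The 4 summed to 7.50 to 11.5 RPKM in Scr and 16.5 to 20.5 RPKM in MICT1 KO libraries, and without Cd14 to 1.65 to 2.997 and 1.98 to 3.18 RPKM. Adgre1, Itgam, Ptprc, Lyz2, Fcgr1, Cx3cr1 and C1qa were not analysed here, and the part of other cells in the values of the 10 genes was not tested. Of 7 endothelial genes Cdh5 alone was in the table. Its level was 0.0922 to 0.182 RPKM in Scr and 0.399 to 0.508 RPKM in MICT1 KO libraries (log2 fold change 1.71, limma-trend adjusted p = 0.00275). Cdh5 passed the filter on low values only through the MICT1 KO group, so its call rests on the group where it is high. Its normalized value stayed under 10 in Scr replicate 1 (5.9) and Scr replicate 3 (8.1).

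The genes whose pattern was most like that of Nfkb2 over the 6 libraries, by Pearson's r of log2(value + 1), were Hoxb9 (0.9999), Kif4 (0.9998) and Plxnb2 (0.9996). For Nfkbia they were Ccbe1 (0.9996), Sash1 (0.9995) and D17H6S56E-5 (0.9993). The 6 points fall into the 2 groups, so r is set largely by the difference between the groups, and r was over 0.99 for 428 genes with Nfkb2 and for 219 genes with Nfkbia. The log2 fold changes of the 3 genes most like Nfkb2 were 2.57, 0.91 and 1.0, and those of the 3 most like Nfkbia 1.60, 0.74 and 0.62.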

How the data were processed

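RNA-seq was measured in 3 Scr and 3 MICT1 KO cultures, which were grouped by their titles. What the authors deposited is a normalized signal for each gene, reads divided by a size factor per library as read from the values: 88.7% to 90.3% of values under 20 were whole multiples, within 0.01, of 1 step per library. The submitters' processing notes name Partek, STAR, DESeq2 and GRCm38, without roles or versions. The methods describe stranded libraries and alignment in Partek to mm10. The counting model and its use of strand are not given in the sources used here.

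The comparison used limma-trend (limma 3.58.1, R 4.3.3) on log2(value + 1) of 12507 genes that reached 10 in 3 or more libraries, two-sided, with Benjamini-Hochberg adjustment. A count model was not used because the values are not raw counts. RPKM took the longest coding transcript of GENCODE vM21 (found for 13137 genes, 98.9%, 207 by an older symbol). Positions and promoter sequences are from RefSeq, GRCm38.p6. The code was tested on simulated data. The 10 genes and all lists were chosen with earlier results of these data known.

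All 10 genes were named. Of the pathway, Rel, Bcl3, the IKK genes and genes called at 2-fold or more were named. Of the targets, the 8 largest changes, any 2-fold fall and the 3 highest genes that did not pass were named. Of the cell type lists, the highest gene each and all macrophage and endothelial genes were named, and for likeness the 3 genes with the highest r. Others are marked as picked after their values were seen. Alternatives were library size or quantile scaling, limma-voom, pseudocounts of 0.5 and 5, no filter, an RPKM filter of 4, the call rule of the methods, a replicate block and leaving out each library.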

Additional observations from a re-analysis of the deposited data

How the results depend on the processing

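For the 10 NF-κB genes, all 139 values recomputed under the alternatives kept their direction and their side of the threshold. Each count of called genes stayed within 1.5 times its value, except under the call rule of the methods, which asks for a 1.8-fold change: it called 5 of the 10 genes in place of 9, and 6 pathway genes in place of 28. An RPKM filter of 4 removed Ikbke and left 8 of 9 called, with Nfkbie kept only by 1 MICT1 KO library at 4.31 RPKM. Over the fits that left out 1 library, the log2 ratio differences ran from 0.975 to 1.03 for Nfkb2 to Nfkb1, from 1.17 to 1.25 for Relb to Rela and from 0.81 to 0.98 for Nfkbia to Nfkbib. Among other genes, the sign of values that had not passed changed when a library was left out: Bcl3 ran from -0.0791 to 0.0143, Ikbkg from -0.0224 to 0.121, Cd83 from -0.22 to 0.85, Cd68 from -0.69 to 0.11 and Mrc1 from -0.17 to 0.18, and Mrc1 was at -0.13 with quantile scaling. Mmp9 also missed the threshold with library size scaling (adjusted p = 0.0517, limma-trend; 0.00833 to 0.227 over its alternatives). The cause of these changes was not tested.

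Replicate numbers gave no clear sign of pairing: correlations of same-numbered deviations from the group means were -0.0236, -0.0155 and 0.0637. Those of unlike-numbered libraries ran from -0.0431 to 0.0561. With so few libraries this check cannot tell a weak pairing from none. With the replicate number as a block, 9 of the 10 genes, 28 pathway genes, 25 target genes and 17 cell type genes were called, and 7055 genes in all against 7113.

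With 3 cultures a group, an exact test of 1 value cannot go below p = 0.1, so each gene's test borrows its error from the others through limma. For Ikbke and Nfkbie, with values under 200, the confidence intervals are the widest of the 10. Genes at 0 in any library are not listed, so counts over lists cover listed genes.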
